A study of Homo sapiens with 8 samples.

Results

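The transcripts described here are the host transcripts of small RNAs: genes named as host genes of a microRNA (miRNA) or of small nucleolar RNAs (snoRNAs), together with GAS5 and DANCR, which also carry snoRNAs, and the nuclear noncoding RNAs NEAT1 and MALAT1. Members were taken by symbol, and 60 of the 23786 features on the array qualified, namely 35 miRNA hosts, 23 snoRNA hosts and the 2 nuclear noncoding RNAs. Of these, MIR100HG was singled out for its rise in WM983B, so its change in that line is described and not tested. No feature named SNHG1 was among those used here.

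RNA was profiled on 8 Affymetrix Human Gene 2.0 ST arrays from WM983B and SK-Mel5, both established human melanoma cell lines. Each line had been transduced with a pLKO1-based lentivirus expressing shp300, a short hairpin RNA against EP300, or expressing a scrambled hairpin. All 4 groups were infected with polybrene at 8 µg/mL and selected in puromycin at 1.5 µg/mL, starting 48 h later. The 4 groups were WM983B shp300, WM983B scrambled, SK-Mel5 shp300 and SK-Mel5 scrambled, with 2 arrays each. EP300 encodes p300, a histone acetyltransferase and transcriptional coactivator, and arrays labelled shp300 were compared with scrambled arrays within each line.

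Small RNA hosts are a special kind of transcript. An miRNA hairpin is cut out of the primary transcript by the nuclear Drosha complex, trimmed by Dicer and loaded into an Argonaute protein, where its seed selects the messenger RNAs to be silenced. Most human snoRNAs are released from introns after splicing and guide the chemical modification of ribosomal RNA, while the spliced host RNA is exported and, in cases such as GAS5, broken down by nonsense-mediated decay during translation. The level of a spliced host therefore depends on its stability as well as its transcription, and it need not follow the level of the small RNA that it carries.

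The miRNAs of 3 hosts that carry more than 1 miRNA and were higher in WM983B, MIR100HG, MIR23AHG and MIR181A1HG, are shown to set their seeds (bases 2 to 8, in capitals) side by side, with the MIR99AHG cluster beside that of MIR100HG. MIR100HG on chromosome 11 carries miR-100, let-7a and miR-125b, and its paralogous cluster in MIR99AHG on chromosome 21 carries miR-99a, let-7c and a second copy of miR-125b. The mature sequences are those of RefSeq on GRCh38.p14, written 5′ to 3′.
hsa-miR-100-5p, chr11:122152275-122152296, minus strand: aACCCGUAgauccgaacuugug
hsa-miR-99a-5p, chr21:16539101-16539122, plus strand: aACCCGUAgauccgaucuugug
hsa-let-7a-5p, chr11:122146568-122146589, minus strand: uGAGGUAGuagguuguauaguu
hsa-let-7c-5p, chr21:16539838-16539859, plus strand: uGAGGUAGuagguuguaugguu
hsa-miR-125b-5p, chr11:122099809-122099830, minus strand: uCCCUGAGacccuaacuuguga
The first pair shares the seed ACCCGUA, the second pair shares GAGGUAG, and the miR-125b sequence is the same at both loci.

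MIR23AHG on chromosome 19 carries 3 miRNAs with 3 different seeds. MIR181A1HG on chromosome 1 carries miR-181a and miR-181b, which share the seed ACAUUCA.
hsa-miR-23a-3p, chr19:13836595-13836615, minus strand: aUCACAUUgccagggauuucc
hsa-miR-27a-3p, chr19:13836447-13836467, minus strand: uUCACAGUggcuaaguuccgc
hsa-miR-24-3p, chr19:13836289-13836310, minus strand: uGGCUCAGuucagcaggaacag
hsa-miR-181a-5p, chr1:198859108-198859130, minus strand: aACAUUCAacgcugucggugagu
hsa-miR-181b-5p, chr1:198858925-198858947, minus strand: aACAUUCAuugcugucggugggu

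EP300 was examined first, as the target of the hairpin. In SK-Mel5 its log2 level was 6.03 ± 0.09 in shp300 arrays and 7.05 ± 0.20 in scrambled arrays (SD, n = 2 each), a fall of 1.01 with a limma adjusted p of 0.00377. In WM983B it was 7.09 ± 0.24 in the arrays labelled shp300 and 7.16 ± 0.08 in scrambled arrays, a change of -0.07 (limma adjusted p = 0.832), so every WM983B difference below is one between arrays as labelled, in which a loss of EP300 was not detected. The 2 arrays of a group correlated at 0.992 to 0.995 over all features. The labels do not say whether they came from separate cultures, so p-values measure the spread between these arrays, which may be technical.

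All 9 measured melanoma and melanocyte markers lay above the median feature on every array, and 0 of 7 keratinocyte markers did. The summed log2 level of the 9 melanoma markers was 80.23 to 82.79 in WM983B arrays labelled shp300 and 92.82 to 92.86 in WM983B scrambled arrays. It was 80.07 to 81.03 in SK-Mel5 shp300 arrays and 82.79 to 82.96 in SK-Mel5 scrambled arrays. In WM983B 5 of the 9 were called lower and 1 higher, with changes of -4.055 to 1.038. In SK-Mel5 3 were called lower and 1 higher, with changes of -1.466 to 0.641, of which 5 were above 0 and 4 below. The 8 fibroblast markers summed to 41.81 to 42.06 in WM983B arrays labelled shp300 and 39.71 to 40.01 in WM983B scrambled arrays. Of these 8, 5 had a change above 0 and 3 below 0 in WM983B, with a median of 0.035 and the largest rise in FAP (1.81). They summed to 29.32 to 30.12 in SK-Mel5 shp300 arrays and 28.54 to 28.67 in SK-Mel5 scrambled arrays, where 1 was called higher and 1 lower. The 8 HEK293T markers, the usual producer cell of lentivirus, summed to 36.50 to 37.26 in WM983B arrays labelled shp300 and 33.76 to 33.95 in WM983B scrambled arrays, while they overlapped in SK-Mel5. Of 7 leukocyte markers 1 or 2 lay above the median feature on each array, and at most 1 of 6 endothelial markers did. The leukocyte markers summed to 16.46 to 16.5 in SK-Mel5 shp300 arrays and 18.13 to 18.51 in SK-Mel5 scrambled arrays and overlapped in WM983B, where LYZ was higher by 1.74, and CD68 was lower in both lines (-1.46 in WM983B, -1.74 in SK-Mel5). The part of these shifts in the results was not tested, and in bulk RNA fewer cells of a type cannot be told apart from less RNA per cell.

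The 2 classes of host sat at different places in the array's range. The median log2 level was 4.26 to 4.28 on WM983B arrays and 2.96 to 3.01 on SK-Mel5 arrays, so levels were ranked within each array and not compared between lines. Of the 23 snoRNA hosts, 21 lay at or above the median feature in WM983B shp300 and 21 in WM983B scrambled, with 18 in SK-Mel5 shp300 and 17 in SK-Mel5 scrambled. Of the 35 miRNA hosts, 10 did in WM983B shp300 and 8 in WM983B scrambled, with 5 in each SK-Mel5 group. MALAT1, an RNA of nuclear speckles, and NEAT1, the scaffold of paraspeckles, lay at the 99.9 and 98.9 percentiles in WM983B shp300, and at the 99.5 and 94.7 percentiles in WM983B scrambled.

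In WM983B, 14 of the 60 members rose and 2 fell in the arrays labelled shp300, at a limma adjusted p under 0.05 over all 23786 features. MIR100HG is 1 of the 14, and without it 13 of 59 rose. The background in this comparison was 22.5% of all features called, 10.9% higher and 11.6% lower, against 23.3% higher and 3.33% lower among the members. Without MIR100HG, 22.0% of the members were higher and 3.39% lower. The median member had a change of 0.03 on the log2 scale, or 0.01 without MIR100HG, against 0.02 over all features. The rises were mostly miRNA hosts, of which 10 of 35 rose, MIR100HG included, and 1 fell. Of the 23 snoRNA hosts, 2 rose and 1 fell. Beside MIR100HG, 6 members were called without WM983B scrambled array 2, 9 without WM983B shp300 array 2 and 10 without WM983B scrambled array 1, against 15 with all arrays. The miRNA hosts that rose numbered 6 without that first array, MIR100HG included. With features of low mean level over all 8 arrays left out before the fit, 5 of the 11 hosts called with all features were not tested. A rise itself could help a host pass that filter, so the hosts that passed are no separate support. The share of all features called without each array is not given here, so the lower counts above are not read as particular to the members.

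In SK-Mel5, 9 members rose and 1 fell, and the rises lay mostly among snoRNA hosts. The background was 16.4% of all features called, 7.57% higher and 8.8% lower, against 15.0% higher and 1.67% lower among the members. Of the 23 snoRNA hosts 6 rose, and limma called 0 lower, with 8 higher and 0 lower at an unadjusted p under 0.05. Their median change was 0.32, with 18 of 23 above 0, against 0.01 over all features. Of the 35 miRNA hosts, 2 rose and 1 fell. For the reduced fits that follow, the share of all features called is not given here. The count of members called was 4 without SK-Mel5 scrambled array 1, 5 without SK-Mel5 shp300 array 2 and 4 in a fit of the SK-Mel5 arrays alone, against 10 with all arrays, and 3 snoRNA hosts rose in each of these cases.

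Beside MIR100HG, 21 members were called in at least 1 line, of which 3 rose in both: MIR22HG, NEAT1 and SNHG15. Of all features 22.5% were called in WM983B and 16.4% in SK-Mel5. The shares of all features called in either line or in both are not given here, so these counts have no background to be read against. Another 12 members were called only in WM983B by the threshold and 6 only in SK-Mel5, which does not show that they differed between lines. The difference between the lines' changes was therefore tested itself. Beside MIR100HG, 5 members had a more positive change in WM983B (limma adjusted p under 0.05), of which 4 were miRNA hosts and 1 was SNHG12, and 5 snoRNA hosts had a more positive change in SK-Mel5. The background for this comparison was 9.46% of all features called, 5.0% higher and 4.46% lower. Of these 10 members, 3 to 5 kept the call without any 1 of the WM983B arrays or SK-Mel5 scrambled arrays, and 6 without either SK-Mel5 shp300 array. Of the 6 snoRNA hosts among them, 0 kept it without either WM983B scrambled array or SK-Mel5 scrambled array 2, and 1 or 2 did without any other single array. The labels do not say whether arrays of both lines were normalized together, and the medians given above differ between lines. Of the same 10, 7 were called after quantile normalization of all 8 arrays together and 10 after cyclic loess. The share of all features called in these fits, or without any single array, is not given here.

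**Figure D1:**
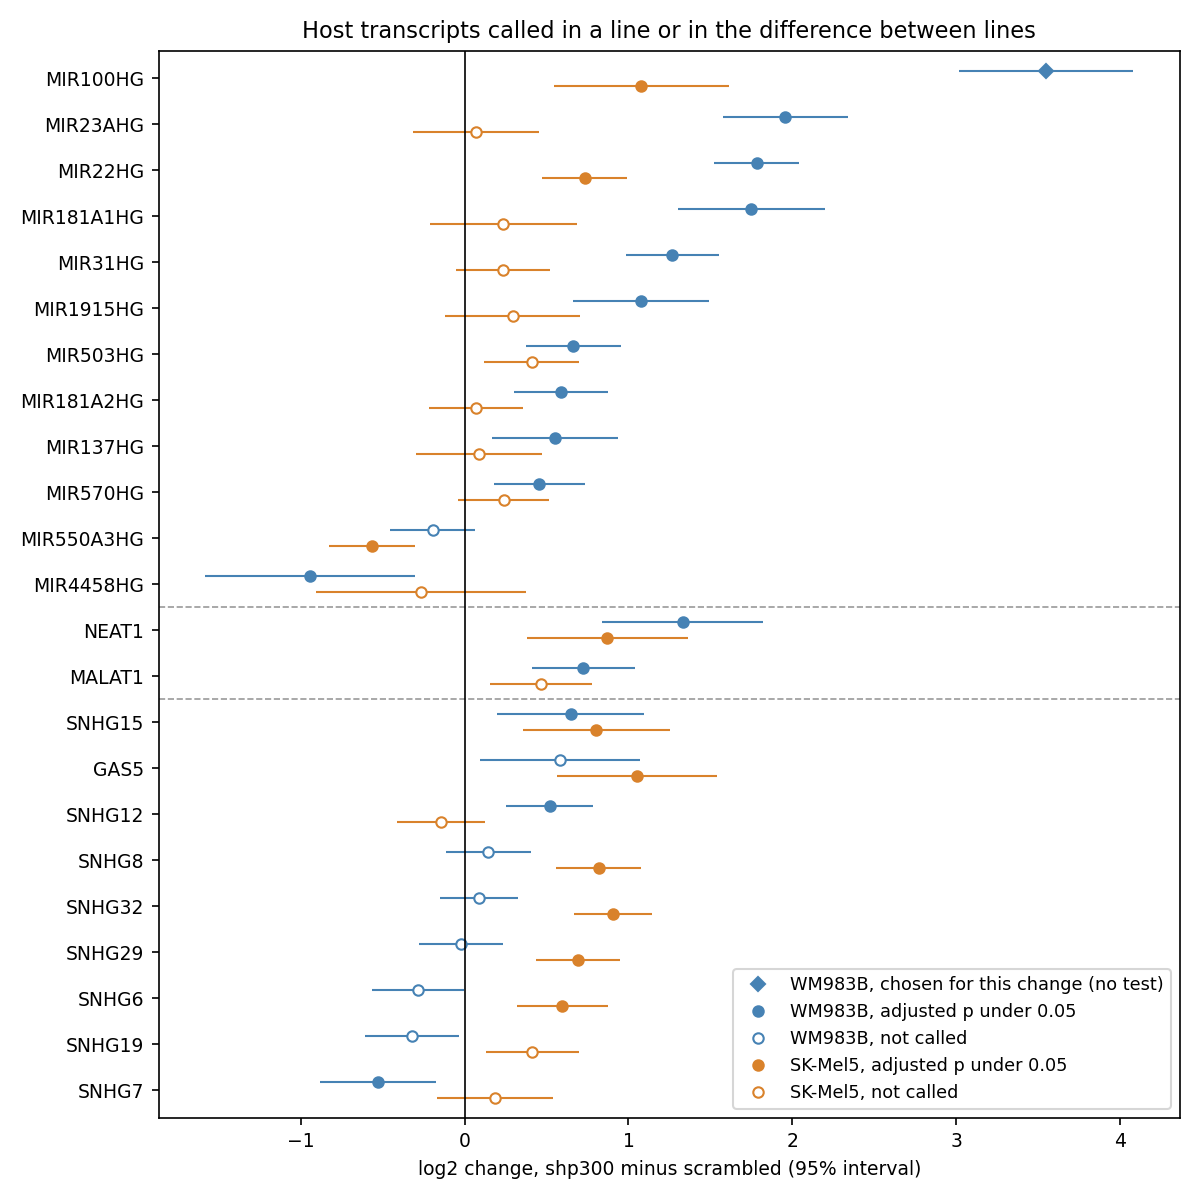
Log2 change (shp300 minus scrambled) of the members called in either line or in the difference between lines, with WM983B in blue, SK-Mel5 in orange and horizontal bars for 95% confidence intervals. Filled points had an adjusted p under 0.05, open points did not, and the diamond marks MIR100HG in WM983B, which was chosen for that change. The miRNA hosts reach furthest right in WM983B, while SNHG32, SNHG8 and SNHG29 lie near 0 in WM983B and between 0.69 and 0.91 in SK-Mel5.

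MIR100HG had the largest change of any member in WM983B. This long noncoding RNA hosts the miR-100, let-7a-2 and miR-125b-1 hairpins and has been described in several cancers. Its log2 level was 8.11 and 7.98 in WM983B arrays labelled shp300, against 4.63 and 4.37 in scrambled arrays, a change of 3.55 or 11.7-fold. In SK-Mel5 it was 3.52 and 2.86 in shp300 arrays, against 1.90 and 2.32 in scrambled arrays. The groups did not overlap in either line, and the gap in SK-Mel5 was smaller and the arrays further apart.

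In SK-Mel5, where the choice of MIR100HG did not use its values, it rose by 1.08 (SE 0.23, 2.11-fold, limma adjusted p = 0.016). It ranked at the 88.6 percentile in WM983B shp300 and the 52.3 in WM983B scrambled, and at the 51.8 percentile in SK-Mel5 shp300 and the 37.2 in SK-Mel5 scrambled. The SK-Mel5 call was lost without scrambled array 1 (adjusted p = 0.104), without shp300 array 1 (0.0608) and in a fit of the SK-Mel5 arrays alone (0.101).

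None of the 3 hairpin features within MIR100HG was called in either line. MIR100 had log2 levels of 1.18 and 1.13 in WM983B arrays labelled shp300, against 1.05 and 1.01 in scrambled arrays, a change of 0.13 (limma adjusted p = 0.63). MIRLET7A2 had a change of 0.23 (adjusted p = 0.248) and MIR125B1 of -0.05 (adjusted p = 0.918). In WM983B scrambled arrays these 3 lay at the 0.9, 1.8 and 10.1 percentiles of all features, near the bottom of the array's range. The hairpin features cover bases of the primary transcript and are not a measurement of the mature miRNAs, which were not assayed.

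Neighbouring genes of MIR100HG did not share one direction. BLID, a gene inside the MIR100HG span, rose by 1.25 in WM983B (limma adjusted p = 0.000165) and had a change of -0.06 in SK-Mel5 (adjusted p = 0.799). SORL1, a sorting receptor, fell by 0.80 in WM983B (adjusted p = 0.00283) and rose by 0.62 in SK-Mel5 (adjusted p = 0.0121), a call lost without SK-Mel5 scrambled array 2 (0.0815) or shp300 array 1 (0.061). UBASH3B and CRTAM, the other 2 neighbours examined, were called in neither line. MIR99AHG, the host of the paralogous cluster, had 4.44 and 4.66 in WM983B arrays labelled shp300, against 4.22 and 4.05 in scrambled arrays, a change of 0.41 that did not pass the test (adjusted p = 0.127).

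MIR23AHG hosts the miR-23a, miR-27a and miR-24-2 cluster, which is known in haematopoietic, muscle and tumour cells. Its log2 level was 8.28 and 8.33 in WM983B arrays labelled shp300, against 6.36 and 6.33 in scrambled arrays, a rise of 1.96 (SE 0.17, 3.88-fold, limma adjusted p = 0.00018). In SK-Mel5 it was 4.94 and 4.49 in shp300 arrays, against 4.50 and 4.79 in scrambled arrays, a change of 0.07 (adjusted p = 0.861). The groups were far apart in WM983B and overlapped in SK-Mel5, and the difference between the changes was 1.89 (adjusted p = 0.00384).

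The hairpin features of this cluster, unlike those of MIR100HG, were called higher. MIR24-2 had 4.42 and 4.14 in WM983B arrays labelled shp300, against 2.37 and 2.23 in scrambled arrays, a rise of 1.98 (limma adjusted p = 6.61e-05) close to that of its host. MIR27A rose by 1.10 (adjusted p = 0.0256) and MIR23A by 0.71 (adjusted p = 0.00701). MIR24-2 had a change of 0.31 in SK-Mel5 (adjusted p = 0.163), which differed from WM983B by 1.67 (adjusted p = 0.00284). The MIR27A call was lost without WM983B scrambled array 2 or shp300 array 2 (0.149 to 0.16), and the MIR23A call without that scrambled array (0.0556).

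MIR22HG, the host of miR-22, rose in both lines. Its log2 level was 6.61 and 6.51 in WM983B arrays labelled shp300, against 4.81 and 4.75 in scrambled arrays, a rise of 1.78 (SE 0.11, 3.44-fold, limma adjusted p = 6e-05). In SK-Mel5 it was 4.51 and 4.57 in shp300 arrays, against 3.72 and 3.89 in scrambled arrays, a rise of 0.73 (1.66-fold, adjusted p = 0.00377). All shp300 arrays lay above all scrambled arrays of their line, and the rise was larger in WM983B by 1.05 (adjusted p = 0.0077).

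MIR181A1HG, the host of miR-181a-1 and miR-181b-1, had log2 levels of 6.27 and 6.00 in WM983B arrays labelled shp300, against 4.64 and 4.13 in scrambled arrays, a rise of 1.75 (SE 0.19, 3.36-fold, limma adjusted p = 0.00061). The groups did not overlap, and the SK-Mel5 change was 0.24 (adjusted p = 0.518), 1.51 less than in WM983B (adjusted p = 0.015). The MIR181B1 hairpin rose by 1.59 in WM983B (adjusted p = 0.000605), while MIR181A1 had a change of -0.08 (adjusted p = 0.702) and lay at 1.31 to 1.43 on all 4 WM983B arrays. The test of the difference between lines for MIR181A1HG was lost without WM983B shp300 array 1 (0.0547) or SK-Mel5 scrambled array 1 (0.0596).

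MIR31HG, a host of miR-31 described in senescence and in several tumours, was at the low end of the array. It had 3.30 and 3.18 in WM983B arrays labelled shp300, against 2.01 and 1.93 in scrambled arrays, a rise of 1.27 (SE 0.12, 2.41-fold, limma adjusted p = 0.000325). In SK-Mel5 it had a change of 0.24 (adjusted p = 0.272) at the 9.7 percentile in shp300 and the 2.7 percentile in scrambled arrays. The difference between the lines was 1.03 (adjusted p = 0.0116), a call lost without WM983B scrambled array 2 (0.0557) and after quantile normalization of all 8 arrays (0.0957). The MIR31 hairpin feature had a change of -0.12 in WM983B (adjusted p = 0.847).

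MIR1915HG had 5.24 and 5.12 in WM983B arrays labelled shp300, against 3.83 and 4.37 in scrambled arrays, a rise of 1.08 (SE 0.18, limma adjusted p = 0.00386). Smaller rises in WM983B were those of MIR503HG by 0.66 (adjusted p = 0.00713), MIR181A2HG, which hosts the second miR-181 cluster, by 0.59 (0.0111), MIR137HG by 0.55 (0.0496) and MIR570HG by 0.45 (0.0293). The only miRNA host to fall in WM983B was MIR4458HG, with 4.72 and 3.88 in shp300 arrays, against 5.39 and 5.09 in scrambled arrays, a change of -0.94 (adjusted p = 0.043). None of these 6 was called in SK-Mel5, where their changes ran between -0.27 and 0.41.

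Several of these smaller calls rested on single arrays. The call of MIR503HG was lost without WM983B scrambled array 2 (0.0503), that of MIR181A2HG without WM983B scrambled array 2 (0.0806) or shp300 array 2 (0.0558), and that of MIR570HG without any 1 of the 4 WM983B arrays (0.063 to 0.164). MIR137HG was not called without any single array other than WM983B shp300 array 1 (0.0553 to 0.238), and MIR4458HG was not without WM983B scrambled array 1 or 2, WM983B shp300 array 2, or either SK-Mel5 shp300 array (0.0606 to 0.213).

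Among miRNA hosts, the only fall in SK-Mel5 was that of MIR550A3HG, which had 6.56 and 6.39 in shp300 arrays, against 7.10 and 6.97 in scrambled arrays, a change of -0.57 (SE 0.11, limma adjusted p = 0.012). Its change in WM983B was -0.19 (adjusted p = 0.291). The SK-Mel5 groups did not overlap, but the call was lost without SK-Mel5 scrambled array 1 (0.0823), without shp300 array 2 (0.0637) and in a fit of the SK-Mel5 arrays alone (0.0631).

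**Figure D2:**
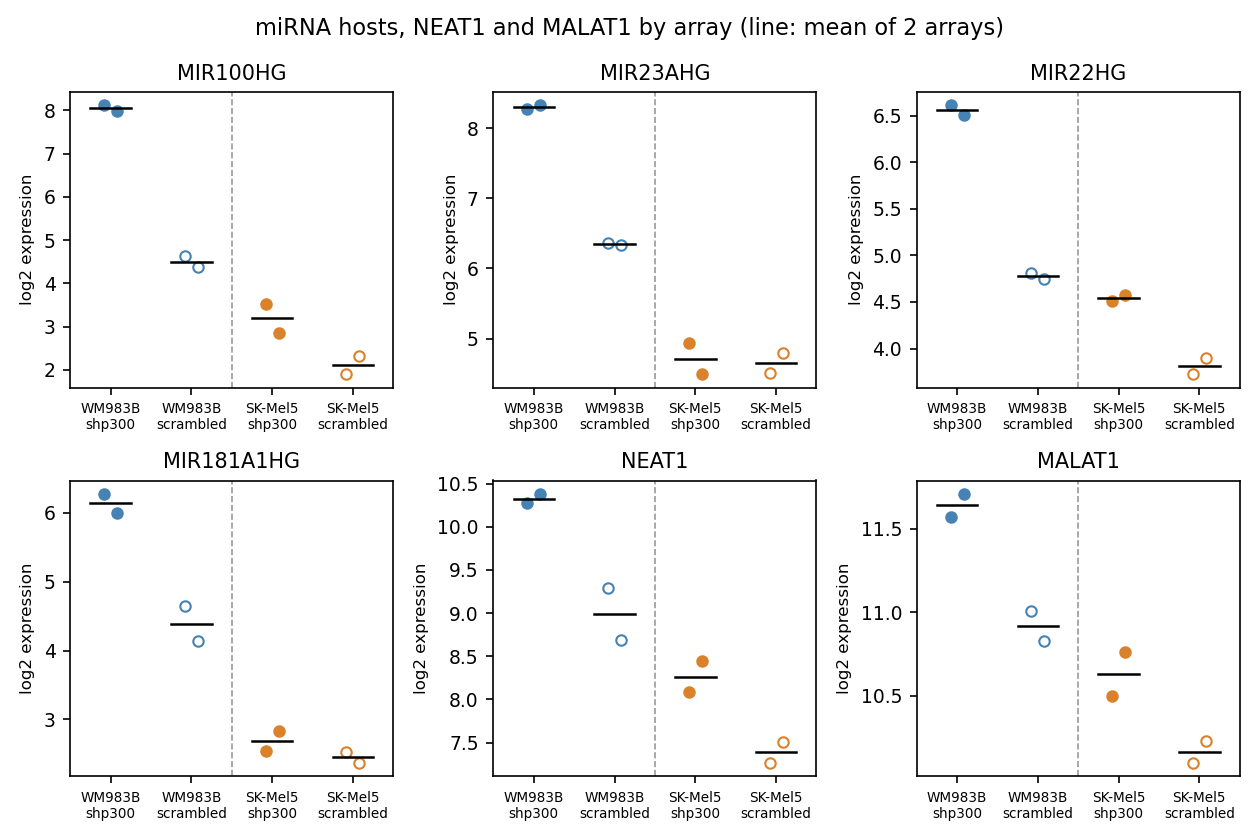
Log2 expression of 4 miRNA hosts, NEAT1 and MALAT1 on each array, by group, with a bar at the mean of the 2 arrays and a dashed line between the lines, whose levels are not on a common scale. MIR100HG lies between 7.98 and 8.11 in WM983B shp300 and between 4.37 and 4.63 in WM983B scrambled, while the SK-Mel5 groups of MIR23AHG overlap.

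Both nuclear noncoding RNAs were abundant in all 4 groups. NEAT1, the scaffold of paraspeckles, had 10.27 and 10.38 in WM983B arrays labelled shp300, against 9.29 and 8.69 in scrambled arrays, a rise of 1.33 (SE 0.21, 2.52-fold, limma adjusted p = 0.00321). In SK-Mel5 it had 8.08 and 8.44 in shp300 arrays, against 7.27 and 7.51 in scrambled arrays, a rise of 0.87 (1.83-fold, adjusted p = 0.0273). The shp300 arrays lay above the scrambled arrays in both lines, and the changes were not shown to differ (difference 0.46, 95% interval -0.23 to 1.16, adjusted p = 0.417). The SK-Mel5 call was lost without scrambled array 1 (0.151), scrambled array 2 (0.067) or shp300 array 2 (0.137), and in a fit of the SK-Mel5 arrays alone (0.0602).

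MALAT1, which localises to nuclear speckles, had 11.57 and 11.71 in WM983B arrays labelled shp300, against 11.01 and 10.83 in scrambled arrays, a rise of 0.72 (SE 0.14, limma adjusted p = 0.00661). In SK-Mel5 it had 10.50 and 10.76 in shp300 arrays, against 10.10 and 10.23 in scrambled arrays, a change of 0.47 that missed the threshold (adjusted p = 0.0541). The groups did not overlap in either line. The WM983B call was lost without scrambled array 2 (0.0561), and the SK-Mel5 change was called with each array centred on its median (0.0465) and with features of low level left out (0.0186). The MIR612 hairpin, which lies in the NEAT1 span, rose by 1.39 in WM983B (adjusted p = 0.00274) and had a change of 0.29 in SK-Mel5 (adjusted p = 0.463).

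Protein partners of these RNAs were examined as separate lists. For their fits without an array, the share of all features called is not given here, so lower counts are not read as particular to a list. Of 18 paraspeckle proteins, 1 rose and 4 fell in WM983B and 3 fell in SK-Mel5, with median changes of -0.03 and -0.05. That is 5.56% higher and 22.2% lower in WM983B, beside the background of 10.9% and 11.6%, and 16.7% lower in SK-Mel5, beside 8.8%. DAZAP1, an RNA-binding paraspeckle protein, fell by 0.59 in WM983B (limma adjusted p = 0.00722). Its call was lost without WM983B scrambled array 2 (0.0549), and 0 of the 18 were then called. At most 2 paraspeckle proteins fell without any single WM983B array in WM983B, and at most 1 without any single SK-Mel5 array in SK-Mel5. Of 19 nuclear speckle proteins, 4 rose and 3 fell in WM983B, among them the splicing factor kinase CLK4 by 1.02 (adjusted p = 0.00494). In SK-Mel5 2 of the 19 rose and limma called 0 lower, with 2 lower at an unadjusted p under 0.05. The called share of speckle proteins was 36.8% in WM983B, beside 22.5% of all features, and 10.5% in SK-Mel5, beside 16.4%. By direction, 21.1% rose and 15.8% fell in WM983B, beside 10.9% and 11.6%, and the 10.5% in SK-Mel5 all rose, beside 7.57%. Without any single WM983B array at most 2 speckle proteins were called higher and 0 lower in WM983B, and without any single SK-Mel5 array at most 1 was called in SK-Mel5.

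Among snoRNA hosts, the largest change in SK-Mel5 was that of GAS5, a noncoding host of many box C/D snoRNAs whose spliced RNA is degraded when it is translated. Its log2 level was 9.21 and 9.74 in SK-Mel5 shp300 arrays, against 8.20 and 8.65 in scrambled arrays, a rise of 1.05 (SE 0.21, 2.08-fold, limma adjusted p = 0.0122). In WM983B it was 9.86 and 10.09 in shp300 arrays, against 9.47 and 9.31 in scrambled arrays, a change of 0.58 that did not pass the test (adjusted p = 0.092). The groups did not overlap in either line, and the changes were not shown to differ (difference -0.47, 95% interval -1.16 to 0.22). The SK-Mel5 call was lost without scrambled array 1 (0.0809), without shp300 array 2 (0.0587) and in a fit of the SK-Mel5 arrays alone (0.0846), and the WM983B change was called with features of low level left out (0.0451).

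SNHG32, SNHG8 and SNHG29 rose in SK-Mel5 and kept their calls without any single array. SNHG32, the host of SNORD48 and SNORD52, had 8.73 and 8.69 in SK-Mel5 shp300 arrays, against 7.85 and 7.76 in scrambled arrays, a rise of 0.91 (SE 0.10, 1.87-fold, limma adjusted p = 0.00102). In WM983B it had 9.01 and 9.08 in shp300 arrays, against 8.97 and 8.94 in scrambled arrays, a change of 0.09 (adjusted p = 0.647). The gap between groups in SK-Mel5 was many times the spread between arrays.

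SNHG8, the host of SNORA24, had 7.87 and 7.75 in SK-Mel5 shp300 arrays, against 6.99 and 7.00 in scrambled arrays, a rise of 0.82 (SE 0.11, 1.76-fold, limma adjusted p = 0.00237). Its change in WM983B was 0.15 (adjusted p = 0.449). SNHG29 had 6.41 and 6.38 in SK-Mel5 shp300 arrays, against 5.75 and 5.66 in scrambled arrays, a rise of 0.69 (SE 0.11, 1.62-fold, adjusted p = 0.00452), and had a change of -0.02 in WM983B (adjusted p = 0.921). Neither pair of SK-Mel5 groups overlapped.

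SNHG6, the host of SNORD87, had 8.82 and 9.08 in SK-Mel5 shp300 arrays, against 8.38 and 8.33 in scrambled arrays, a rise of 0.60 (SE 0.12, limma adjusted p = 0.0127). In WM983B it had 9.46 and 9.54 in shp300 arrays, against 9.81 and 9.77 in scrambled arrays, a change of -0.28 (adjusted p = 0.147). The groups did not overlap in either line, with the shp300 arrays higher in SK-Mel5 and lower in WM983B. The SK-Mel5 call was lost without scrambled array 1 (0.0581), scrambled array 2 (0.0739) or shp300 array 2 (0.064), and in a fit of the SK-Mel5 arrays alone (0.0682).

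SNHG15, a short-lived host of an H/ACA snoRNA, was the only snoRNA host called in both lines. It had 7.31 and 7.83 in WM983B arrays labelled shp300, against 6.89 and 6.96 in scrambled arrays, a rise of 0.65 (SE 0.19, limma adjusted p = 0.0474). The SK-Mel5 levels were 6.39 and 6.41 in shp300 arrays, against 5.39 and 5.80 in scrambled arrays, a rise of 0.80 (adjusted p = 0.0264). No groups overlapped. The WM983B call was lost without WM983B scrambled array 1 or 2, WM983B shp300 array 2 or either SK-Mel5 shp300 array (0.065 to 0.23), and the SK-Mel5 call without either WM983B scrambled array, SK-Mel5 scrambled array 1 or either SK-Mel5 shp300 array (0.0515 to 0.156).

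SNHG12, the host of several H/ACA snoRNAs and SNORD99, had 7.89 and 8.06 in WM983B arrays labelled shp300, against 7.54 and 7.38 in scrambled arrays, a rise of 0.52 (SE 0.12, limma adjusted p = 0.0144). The SK-Mel5 levels were 4.07 and 4.11 in shp300 arrays, against 4.20 and 4.26 in scrambled arrays, a change of -0.14 (adjusted p = 0.502). SNHG7 had 4.22 and 4.50 in WM983B arrays labelled shp300, against 4.89 and 4.88 in scrambled arrays, a fall of 0.53 (SE 0.15, adjusted p = 0.0423). The WM983B groups of both were apart. The WM983B call of SNHG12 was lost without WM983B scrambled array 2 (0.099) or shp300 array 2 (0.0814), and that of SNHG7 without WM983B scrambled array 1 or 2, WM983B shp300 array 1 or either SK-Mel5 scrambled array (0.067 to 0.21).

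The changes of 6 snoRNA hosts differed between the lines. WM983B minus SK-Mel5, the difference was -0.88 for SNHG6 (limma adjusted p = 0.0192), -0.82 for SNHG32 (0.0139), -0.74 for SNHG19 (0.0383), -0.72 for SNHG29 (0.0287) and -0.67 for SNHG8 (0.0386), and it was 0.66 for SNHG12 (0.0434). SNHG19 was called in neither line alone, with changes of -0.32 in WM983B (adjusted p = 0.109) and 0.41 in SK-Mel5 (0.0589). Without any single 1 of the 8 arrays the difference was lost for SNHG12 (0.0602 to 0.146), SNHG19 (0.055 to 0.12), SNHG29 (0.0591 to 0.1) and SNHG8 (0.0518 to 0.122). It was lost for SNHG32 without either WM983B scrambled array or SK-Mel5 scrambled array 2 (0.0554 to 0.0577), and for SNHG6 without any 1 of the WM983B arrays or either SK-Mel5 scrambled array (0.0506 to 0.0723).

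**Figure D3:**
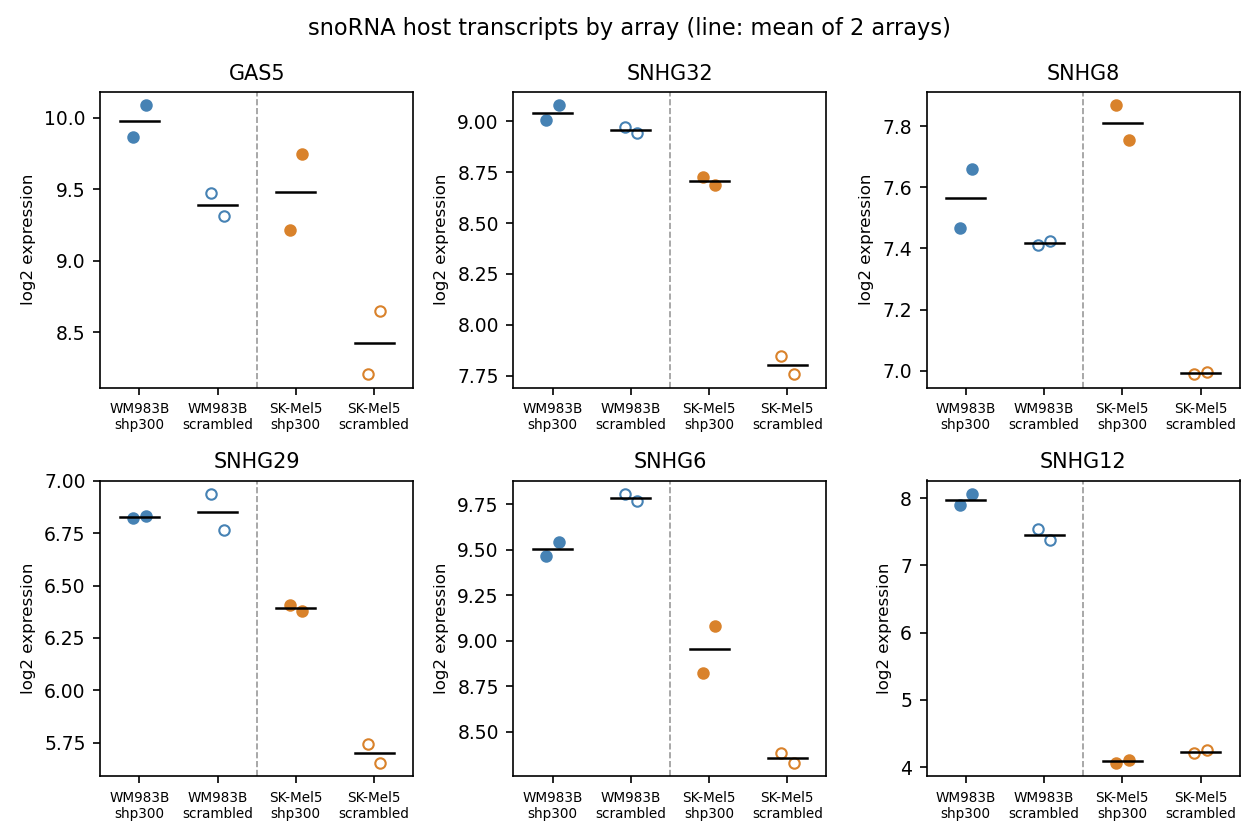
Log2 expression of 6 snoRNA hosts on each array, by group, with a bar at the mean of the 2 arrays, each panel on its own axis. The SK-Mel5 shp300 arrays lie above the SK-Mel5 scrambled arrays for 5 of the 6, and these 5 had been called higher in SK-Mel5. Of all 23 snoRNA hosts 10 lay above in SK-Mel5, beside 26.3% of all features. SNHG6 lies lower in WM983B shp300 than in WM983B scrambled.

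DANCR, a snoRNA host described as a regulator of differentiation, was not called in either line. It had 7.78 and 7.66 in WM983B arrays labelled shp300, against 8.09 and 8.05 in scrambled arrays, a change of -0.35 just outside the threshold (limma adjusted p = 0.0506). It was called lower under 4 of the alternative settings, namely with features of low level left out (0.0155), each array centred on its median (0.0468), quantile normalization (0.0448) and a trended, robust variance (0.00706). The SK-Mel5 levels were 7.83 and 7.93 in shp300 arrays, against 7.91 and 7.84 in scrambled arrays, and the groups overlapped.

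The remaining members gave no call. In WM983B 44 members did not pass, with changes of -0.35 to 0.58, and the largest in size were those of GAS5, MIRLET7BHG (0.46, limma adjusted p = 0.0942) and SNHG28 (0.46, 0.0818). In SK-Mel5 50 did not pass, with changes of -1.02 to 0.79, and the largest were those of MIR3945HG (-1.02, 0.079), SNHG4 (0.79, 0.326) and SNHG18 (0.48, 0.274). MIR3945HG had 2.20 and 1.09 in SK-Mel5 shp300 arrays, against 2.72 and 2.62 in scrambled arrays, and SNHG4 had 2.21 and 2.47 in shp300 arrays, against 0.71 and 2.39 in scrambled arrays. In both, 1 array stood far from its partner.

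Counting only whether the arrays overlapped, 23 members in WM983B lay higher in both shp300 arrays than in both scrambled arrays, 14 lay lower and 23 overlapped. Over all features 58.4% did not overlap in WM983B, 30.6% higher and 27.8% lower. In SK-Mel5 23 members lay higher, 6 lay lower and 31 overlapped, beside 51.4% of all features, 26.3% higher and 25.1% lower. Taken without direction, the members' share without overlap was near that of all features in both lines. By direction, more members lay higher than lower, 23 against 14 in WM983B and 23 against 6 in SK-Mel5, while all features were more evenly split. The 23 in WM983B include MIR100HG, which was chosen for its rise there, and the split by direction was not tested.

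The small RNAs inside the hosts were measured by 73 features within 42 hosts, 35 miRNA hairpins and 38 snoRNAs or small Cajal body RNAs. Strand could be read for both the host and the small RNA in 26 of the 73, and the other 47 were placed by span alone. In WM983B 8 rose and 1 fell, and for 6 of these 9 the host was called in the same direction. In SK-Mel5 6 rose and 2 fell, and for 2 of these 8 the host was called in the same direction. The called share in either direction was 12.3% in WM983B and 11.0% in SK-Mel5, below the background of 22.5% and 16.4% of all features. By direction, 11.0% rose in WM983B and 8.22% in SK-Mel5, near the 10.9% and 7.57% of all features. The falls were 1.37% and 2.74%, below 11.6% and 8.8%. Conversely, 14 small RNA features in WM983B and 20 in SK-Mel5 were not called although their host was. In the scrambled arrays 32 of the 73 lay below the median feature in WM983B and 37 in SK-Mel5. For the fits without an array that follow, the share of all features called is not given here. Without WM983B scrambled array 2 the WM983B rises numbered 3. The SK-Mel5 rises numbered 0 and 2 without SK-Mel5 scrambled array 1 and 2, and 3 without SK-Mel5 shp300 array 2 or either WM983B scrambled array.

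GAS5 carried the most measured snoRNAs of any member. Of 9 GAS5 snoRNA features, SNORD80 rose by 0.59 in WM983B (limma adjusted p = 0.0123), and SNORD47 rose by 0.53 in SK-Mel5 (adjusted p = 0.0278). SNORD44 had a change of 0.66 in SK-Mel5 (adjusted p = 0.0639), SNORD76 of 0.55 (0.0685) and SNORD74 of 0.09 (0.83). The SNORD80 call was lost without WM983B scrambled array 2 or shp300 array 2 (0.0692 to 0.0894). The SNORD47 call was lost without either WM983B scrambled array, either SK-Mel5 scrambled array or SK-Mel5 shp300 array 2 (0.0531 to 0.129).

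SNORD50A, a box C/D snoRNA in an intron of SNHG5, moved in opposite directions in the 2 lines. It had 7.17 and 6.95 in WM983B arrays labelled shp300, against 6.36 and 6.28 in scrambled arrays, a rise of 0.74 (limma adjusted p = 0.0132). In SK-Mel5 it had 4.82 and 4.67 in shp300 arrays, against 5.85 and 5.41 in scrambled arrays, a fall of 0.88 (adjusted p = 0.00852). The difference was 1.63 (adjusted p = 0.00588). SNHG5 itself had a change of -0.07 in WM983B (adjusted p = 0.764) and -0.20 in SK-Mel5 (adjusted p = 0.377). The WM983B call was lost without WM983B scrambled array 1 or 2 or shp300 array 1 (0.0593 to 0.083).

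SNORD1B, carried by SNHG16, fell in both lines while its host was not called. It had 3.41 and 3.96 in WM983B arrays labelled shp300, against 4.51 and 4.59 in scrambled arrays, a fall of 0.87 (limma adjusted p = 0.0178). In SK-Mel5 it had 2.90 and 2.60 in shp300 arrays, against 3.89 and 4.22 in scrambled arrays, a fall of 1.31 (adjusted p = 0.00416). SNHG16 had a change of -0.24 in WM983B (adjusted p = 0.221) and 0.11 in SK-Mel5 (adjusted p = 0.644). The WM983B call of SNORD1B was lost without WM983B scrambled array 1 or 2 or shp300 array 1 (0.0758 to 0.0992).

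**Figure D4:**
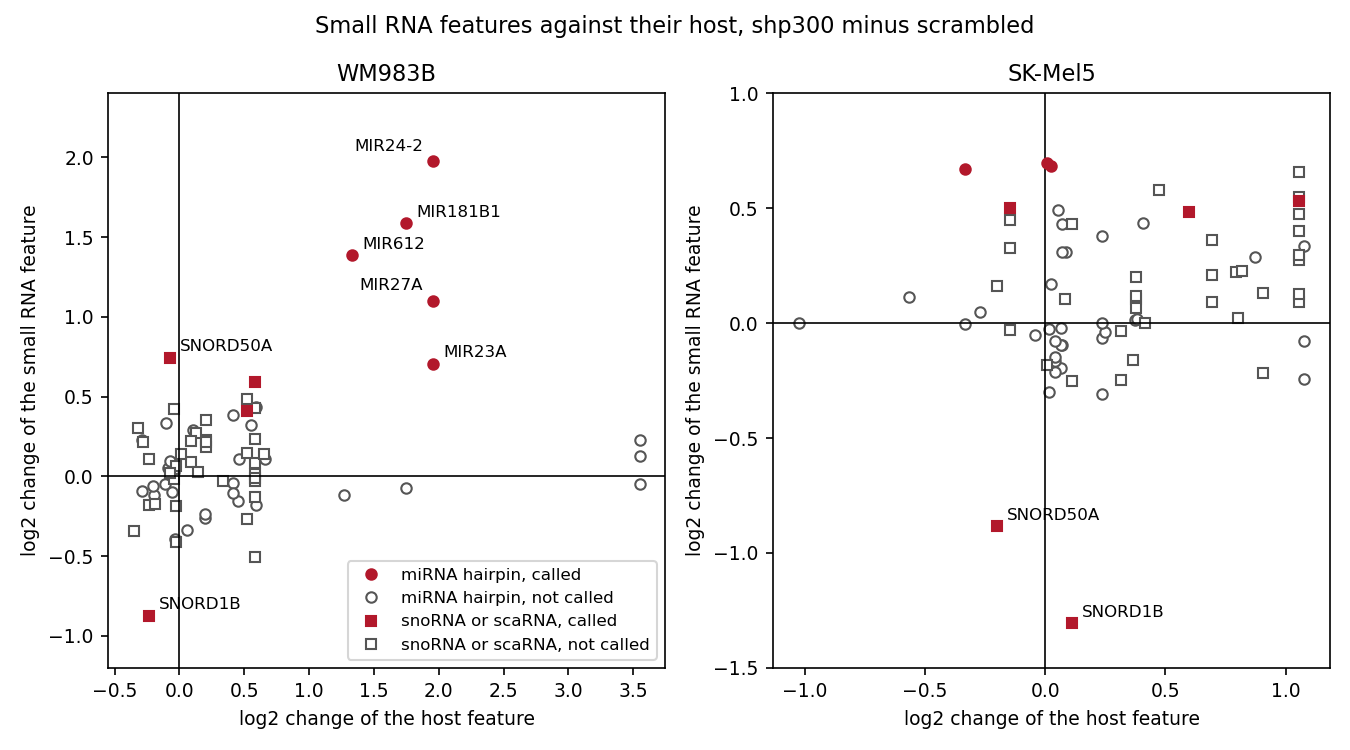
Log2 change of each small RNA feature against that of its host, for WM983B and SK-Mel5, with miRNA hairpins as circles and snoRNAs or small Cajal body RNAs as squares, filled where the small RNA was called. The 3 MIR100HG hairpins lie at the far right of the WM983B panel near 0 on the vertical axis, and MIR24-2 lies at 1.98 with its host at 1.96.

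The machinery that acts on these transcripts was examined with lists of its genes. For fits of these lists without an array or of 1 line alone, the share of all features called is not given here. Lower counts in those fits are therefore not read as particular to a list. Of 20 proteins of snoRNP assembly, 8 fell in WM983B and limma called 0 higher, with 2 higher at an unadjusted p under 0.05. Over all features 11.6% fell and 10.9% rose. The median was -0.27, and the list included the methyltransferase fibrillarin (FBL, -0.68, limma adjusted p = 0.0034), the H/ACA protein NHP2 (-0.72, 0.00345) and the nucleolar factor TCOF1 (-0.89, 0.00321). In SK-Mel5 1 of the 20 was called, the snRNA export adaptor PHAX (0.56, adjusted p = 0.0095), a call lost without SK-Mel5 scrambled array 1 (0.068). In WM983B the falls numbered 3 and 4 without scrambled array 1 and 2, and 4 without shp300 array 1.

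Of 20 genes of miRNA processing and silencing, 5 rose and 1 fell in WM983B, where 10.9% of all features rose and 11.6% fell. DICER1, which cuts the precursor hairpin, rose by 0.95 (limma adjusted p = 0.00182), the Argonaute AGO3 rose by 0.95 (0.00143) and the terminal uridylyltransferase TUT7 rose by 1.44 (0.000927), while the helicase DDX5 fell by 0.57 (0.00636). In SK-Mel5 DICER1 had a change of -0.25 (adjusted p = 0.289), which differed from WM983B by 1.19 (adjusted p = 0.00902). In SK-Mel5 1 of the 20 rose, TNRC6C by 1.18 (adjusted p = 0.00124), and 1 fell. The WM983B median was 0.02, the same as over all features to 2 decimals.

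Of 18 nonsense-mediated decay factors, 4 rose and 1 fell in WM983B and 7 rose and 1 fell in SK-Mel5, with medians of 0.18 and 0.32. The rises were 22.2% of the list in WM983B, beside 10.9% of all features, and 38.9% in SK-Mel5, beside 7.57%. SMG9, a regulator of the SMG1 kinase, rose by 0.58 in WM983B (limma adjusted p = 0.00492) and 0.56 in SK-Mel5 (0.0081). The SK-Mel5 rises numbered 0, 2, 1 and 4 without SK-Mel5 scrambled array 1, scrambled array 2, shp300 array 1 and shp300 array 2, and the call of SMG9 was lost without that first array (0.0584). In WM983B they numbered 1, 2 and 1 without scrambled array 1, shp300 array 1 and shp300 array 2. A fit of each line's arrays alone gave 1 rise in each line.

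Of 30 genes listed as protein-coding snoRNA hosts with a 5′ terminal oligopyrimidine (TOP) start, mostly ribosomal proteins and translation factors, 21 were measured. Whether each listed gene carries a snoRNA was not checked here, NPM1 among them. In SK-Mel5 3 of the 21 rose and limma called 0 lower, with 9 higher and 0 lower at an unadjusted p under 0.05, and the median was 0.25. The called share in either direction was 14.3% in each line, beside 22.5% of all features in WM983B and 16.4% in SK-Mel5. All of the WM983B calls were falls, beside 11.6% of all features lower, and all of the SK-Mel5 calls were rises, beside 7.57% higher. The translation initiation helicase EIF4A2 rose by 0.77 in SK-Mel5 (limma adjusted p = 0.00501). In WM983B 3 fell and 0 rose, with 0 higher at an unadjusted p under 0.05, and the median was -0.06. The nucleolar chaperone NPM1 fell by 0.68 (adjusted p = 0.00506). The WM983B falls numbered 1 without scrambled array 1, scrambled array 2 or shp300 array 1. The SK-Mel5 rises numbered 1 without scrambled array 2 or shp300 array 2.

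The annotated starts of the members were searched for the same TOP letters, a C at the first base followed by at least 4 pyrimidines (C or T). RefSeq windows were at hand for 49 of the 60 members, 62 windows in all. The start was found in 6 of 21 windows of snoRNA hosts (28.6%) and in 0 of 39 windows of miRNA hosts, against 4.07% of all 35116 windows. The changes of 3 of these 6 differed between the lines, more positive in SK-Mel5 for SNHG32 and SNHG19 and in WM983B for SNHG12. For these 3 the 40 bases around the start are shown on GRCh38.p14, with the pyrimidine run in capitals from the annotated first base.
SNHG32, chr6:31834906-31834945, plus strand: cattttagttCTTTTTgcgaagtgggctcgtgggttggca
SNHG19, chr16:2155329-2155368, minus strand: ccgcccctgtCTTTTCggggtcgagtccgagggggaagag
SNHG12, chr1:28581844-28581883, minus strand: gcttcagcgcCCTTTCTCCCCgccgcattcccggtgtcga
The other 3 with such a start were SNHG4, SNHG5 and SNHG18. In SK-Mel5 SNHG32 was called higher and the other 5 were not called, with changes of -0.20 to 0.79. The search gives letters in a window and not a measured start site, and no match says only that these letters are absent from the annotated start.

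Other letters were searched on both strands of the 300 bases around each start. The E-box CACGTG, bound by MITF and MYC, was present in 1 of 62 member windows (1.61%), that of SNHG7, against 7.26% of all windows. The AP-1 letters TGACTCA were present in 2 of 62 (3.23%), those of MIR155HG and MIR181A1HG, against 4.95% of all windows. MIR181A1HG rose in WM983B and MIR155HG had a change of -0.08 (limma adjusted p = 0.831).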

How the data were processed

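Total RNA was measured on 8 arrays. Per the submitters' processing notes the authors used RMA with affy 1.36.1 in R 2.15.1, and the deposited values are log2 expression per gene feature. How probes were mapped to genes is not stated in the labels. All 8 columns entered the fit, with 0 left aside and every feature kept. Of 23786 features, 22458 had 1 symbol, 0 several and 1328 none in the platform table.

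limma 3.58.1 in R 4.3.3 (lmFit, eBayes) fitted 4 groups over all 8 arrays. Each line gave a change of shp300 over scrambled, and the SK-Mel5 change was subtracted from the WM983B change to compare the lines. Tests were two-sided, adjusted by Benjamini-Hochberg over all features, with calls at an adjusted p under 0.05. Named are EP300, MIR100HG, GAS5, DANCR, NEAT1, MALAT1, every member called in a line or in the difference, the 3 largest uncalled members per line, and examples from the lists. The fit was tested on simulated data with 200 changed features.

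Members and lists were chosen with earlier results of these data known, and the search for TOP letters was chosen after their values were seen. Replicate numbers did not pair the arrays (correlation of deviations 0.00303 in WM983B and 0.0277 in SK-Mel5). Alternatives were a replicate block, dim features left out, centring, quantile and cyclic loess normalization, trended robust variances, fits of one line, other thresholds, and leaving out each array. Sequences are from RefSeq on GRCh38.p14. The number of arrays limits the precision.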

Additional observations from a re-analysis of the deposited data

Results flagged for a closer look

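A difference between the lines was the one kind of result that called for a closer look, tested with limma as the shp300 change in WM983B minus that in SK-Mel5. Among miRNA hosts it was 1.89 for MIR23AHG, 1.51 for MIR181A1HG, 1.05 for MIR22HG and 1.03 for MIR31HG, each more positive in WM983B. Among snoRNA hosts it was 0.66 for SNHG12, and -0.88 for SNHG6, -0.82 for SNHG32, -0.74 for SNHG19, -0.72 for SNHG29 and -0.67 for SNHG8, the last 5 more positive in SK-Mel5. MIR23AHG and MIR22HG kept their calls without any single array. EP300 was lower in SK-Mel5 shp300 arrays and not measurably lower in WM983B arrays labelled shp300, and its part in these differences was not tested.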

How the results depend on the processing

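Of 147 changes of named genes, 62 kept their side of the threshold under each alternative that was run, and 0 reversed. Leaving out 1 array at a time gave 7 to 15 called members in WM983B against 16 with all arrays. It gave 4 to 12 in SK-Mel5 against 10, and 5 to 9 for the difference between lines against 11. MIR100HG was among those called in WM983B and in the difference each time, although its WM983B change and the difference were no test. In SK-Mel5 MIR100HG was not called without SK-Mel5 scrambled array 1 or shp300 array 1. A fit of the SK-Mel5 arrays alone gave 4 called members in SK-Mel5, without MIR100HG. The other settings gave 12 to 21 in WM983B. A replicate block, in a design where the pairing of arrays by number had no support, gave 13 members in WM983B, 11 in SK-Mel5 and 8 for the difference, and ended 16 of the 112 calls among the 147 changes. Among members, the calls it ended were those of MIR137HG, MIR4458HG and SNHG7 in WM983B, and of SNHG12, SNHG19 and SNHG8 in the difference. Quantile normalization of all 8 arrays ended those of MIR137HG, MIR4458HG, MIR570HG and SNHG7 in WM983B, and of MIR31HG, SNHG12 and SNHG19 in the difference. The cause was not tested, and the share of all features called in each setting is not given here.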
